A study of Mus musculus with 4 samples.

Results

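The data cover 33 genes of fatty acid oxidation, taken by symbol from the 21884 genes counted in nuclei of mouse hearts, and all 33 symbols were found. They fall into 10 steps: 4 genes of uptake and binding, 4 of the carnitine shuttle, 5 acyl-CoA dehydrogenases, 5 genes of the hydratase, hydroxyacyl-CoA dehydrogenase and thiolase reactions, 3 auxiliary enzymes for unsaturated fatty acids, 3 genes of the electron transfer flavoprotein, 2 peroxisomal enzymes, 2 mitochondrial uncoupling carriers, 4 switches and thioesterases, and 1 ketone enzyme. Nuclear RNA was sequenced from whole hearts of male wild-type (WT) C57BL/6J mice, 1 heart per library. There were 2 hearts from offspring of injured fathers (injured-father hearts 1 and 2) and 2 from offspring of uninjured fathers (uninjured-father hearts 1 and 2). Every offspring, in both groups, had itself been injured at day 1 after birth and was killed 21 days later, so no heart without an injury enters any comparison. Which father sired which offspring, and whether litters were shared, is not given in the sources used here. P-values by father within a class of nuclei therefore measure the spread between 4 hearts, which may share parents. Where several classes share 1 fit, the spread is what remains after heart and class averages, pooled over those classes and hearts.

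Fatty acids are the main fuel of the adult heart. They cross the cell membrane, are bound in the cytosol, are activated to acyl-CoA and pass the mitochondrial membranes as carnitine esters. Inside, a cycle of dehydrogenation, hydration, a second dehydrogenation and thiolysis shortens the chain and hands electrons to the respiratory chain through the electron transfer flavoprotein. Brown fat, which burns fatty acids for heat, uses the same enzymes, and the endothelium of capillaries passes fatty acids from blood to muscle.

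The promoters of 3 members are shown because the results turn on these genes: Ucp3, the mitochondrial uncoupling carrier of heart, muscle and brown fat; Cd36, the fatty acid translocase of the cell surface; and Pdk4, the kinase that shuts off pyruvate dehydrogenase. Each is the 250 bases before the gene's start in the RefSeq tables of build GRCm38.p6, written 5′ to 3′ on the gene's own strand. Capitals mark AGGTCA on either strand, the hexamer that nuclear receptors such as the PPARs recognise. The windows are chr7:100472741-100472990 on the plus strand for Ucp3, chr5:17835897-17836146 on the minus strand for Cd36 and chr6:5496279-5496528 on the minus strand for Pdk4.
Ucp3: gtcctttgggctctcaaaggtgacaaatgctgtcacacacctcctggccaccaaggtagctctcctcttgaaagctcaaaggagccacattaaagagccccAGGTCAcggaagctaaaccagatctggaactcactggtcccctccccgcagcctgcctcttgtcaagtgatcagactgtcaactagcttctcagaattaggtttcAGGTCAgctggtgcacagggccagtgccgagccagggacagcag
Cd36: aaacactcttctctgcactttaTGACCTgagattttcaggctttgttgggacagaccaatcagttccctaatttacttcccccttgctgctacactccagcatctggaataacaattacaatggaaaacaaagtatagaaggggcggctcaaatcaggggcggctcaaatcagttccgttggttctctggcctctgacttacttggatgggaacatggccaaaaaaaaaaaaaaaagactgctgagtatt
Pdk4: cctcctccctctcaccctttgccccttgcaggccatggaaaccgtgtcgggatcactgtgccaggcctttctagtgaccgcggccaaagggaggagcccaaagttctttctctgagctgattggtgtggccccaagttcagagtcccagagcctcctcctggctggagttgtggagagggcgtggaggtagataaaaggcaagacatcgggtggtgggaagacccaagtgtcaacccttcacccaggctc
The Ucp3 window held the hexamer 2 times, 149 and 44 bases before the start, and the Cd36 window held it 1 time, 228 bases before the start. The Pdk4 window did not hold these letters. In GENCODE M21 (GRCm38) the genes span chr7:100472990-100486432 (Ucp3), chr5:17781690-17888801 (Cd36) and chr6:5483351-5496309 (Pdk4). The Cd36 window lies inside the GENCODE span, so it precedes a start within the gene and not the outermost one. The Pdk4 window overlaps the end of its span, from 5496279 to 5496309, so its last bases as written lie within the GENCODE gene. The Ucp3 window ends on the base where its span begins. RefSeq promoters were matched for 26 of the 33 members, and 6 of the 26 held AGGTCA (Acadm, Acadvl, Cd36, Cpt1a, Echs1 and Ucp3), while 14.0% of 32851 windows of the same length across the genome held it. The direct repeat of AGGTCA with 1 base between the copies, searched on both strands, was in 0.0335% of all windows, and TNAAGGTCA on either strand, the extended element known for oestrogen-related receptors, was in 1.14%. Both contain AGGTCA. Neither was in a member's window, but motifs this rare would seldom be found in so few windows, so their absence says little about the members.

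After filtering, 8251 and 9537 nuclei remained in the injured-father hearts, against 9416 and 6791 in the uninjured-father hearts, with 15651493 to 32862239 UMIs (unique molecules counted) per library. Uninjured-father heart 2 was the shallowest, with a median of 1860 UMIs per nucleus against 2129 to 2665 in the others, and 14.9% of its barcodes were marked as doublets. Libraries shared few cell barcodes, 116 among 33995 kept nuclei. Nuclei were grouped into classes by marker genes, with the 33 members kept out of the clustering. Levels are in CPM, UMIs of a gene per 1000000 UMIs of that class and heart. The 12 cardiomyocyte markers summed to 94384 to 96073 CPM in cardiomyocyte-like nuclei of injured-father hearts and to 91944 to 106421 CPM in those of uninjured-father hearts, and the name holds by these markers. They also summed to 5062 to 6798 CPM in fibroblast-like nuclei, a class that should lack them.

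The first question was in which nuclei each step of the pathway was highest. By the mean over hearts with at least 50 nuclei of a class, 27 of the 33 genes were highest in adipocyte-like nuclei, whose mean rests on the 2 injured-father hearts alone. These 313 nuclei carried fat markers, with the 9 adipocyte markers at 2476 and 3668 CPM in injured-father hearts and 2531 and 4725 CPM in uninjured-father hearts, and the brown fat gene Ucp1 at 665 and 93.1 CPM in injured-father hearts and 146 and 135 CPM in uninjured-father hearts, which overlap and rest on 7 and 2 UMIs in the uninjured-father hearts. They were unevenly spread, 173 and 115 nuclei in injured-father hearts and 18 and 7 in uninjured-father hearts. Cardiomyocyte-like nuclei were highest for 4 genes (Fabp3, Cpt1a, Cpt1b and Acot13) and second for 17. Macrophage-like or monocyte-like nuclei were highest for Ucp2 and vascular endothelial-like nuclei for Cd36.

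**Figure D1:**
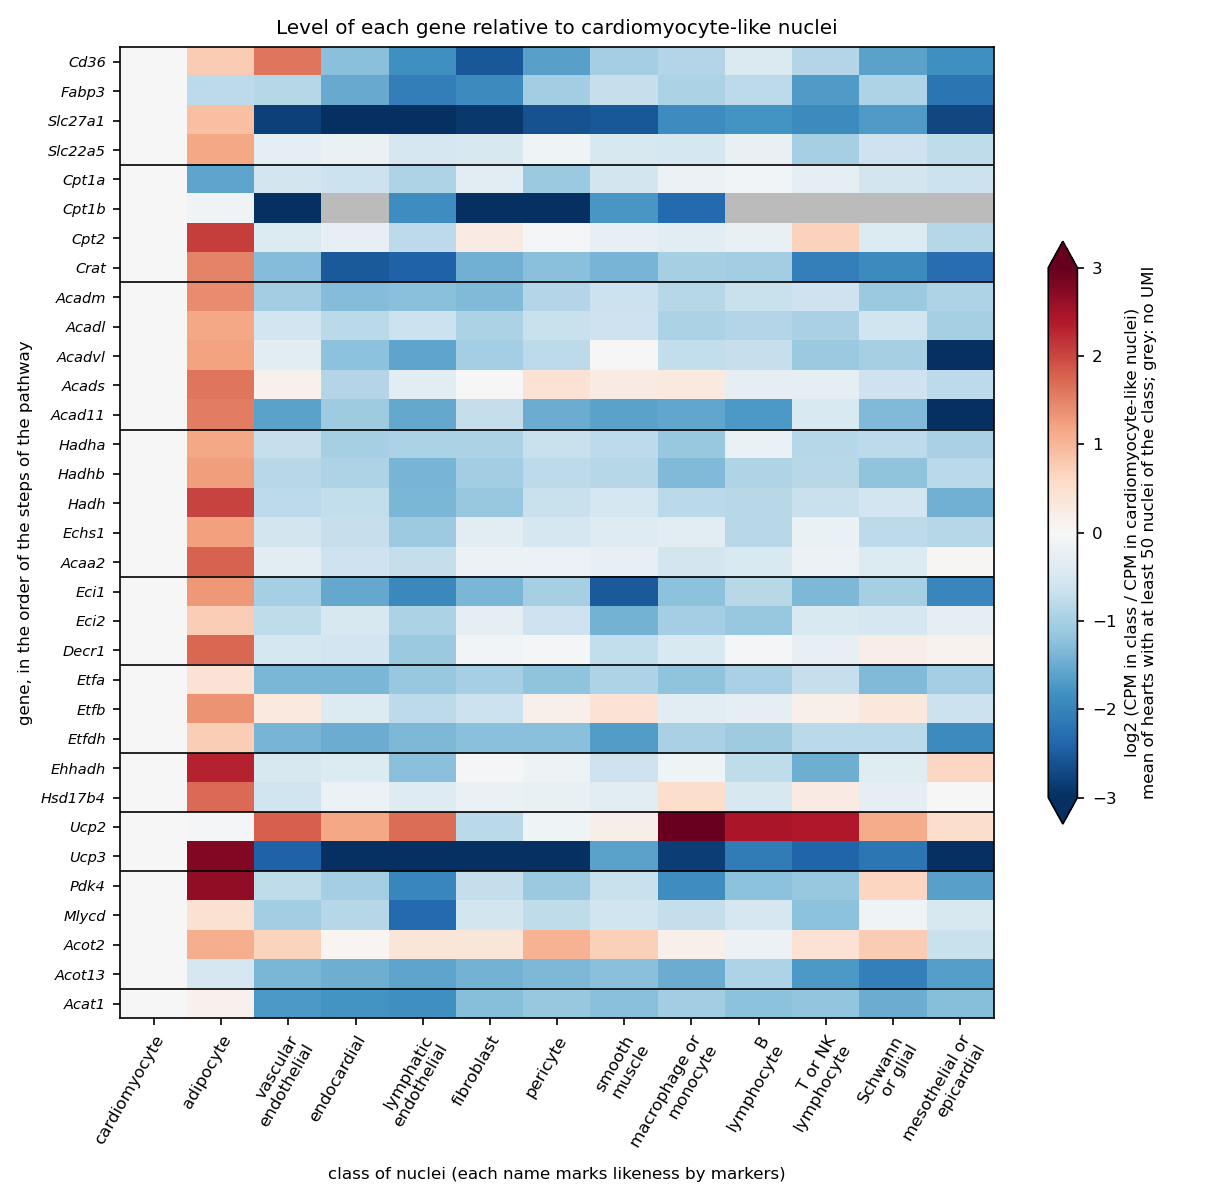
Level of each of the 33 genes (rows, in the order of the steps, steps parted by lines) in each class of nuclei (columns), as log2 of CPM in the class over CPM in cardiomyocyte-like nuclei, each the mean of the hearts with at least 50 nuclei of the class; colours saturate at 3 in both directions and grey marks no UMI. The adipocyte column is red for nearly every gene, and the other columns are mostly blue. Ucp2 and Acot2 are red in most of the other columns. Outside the adipocyte column, Cd36 is red in the vascular endothelial column alone.

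Cardiomyocyte-like nuclei were then compared with each other class within hearts, on counts summed per class and heart, for 11098 genes in 1 fit (edgeR quasi-likelihood test, two-sided, Benjamini-Hochberg adjustment, threshold 0.05; differences are log2 fold changes on the TMM scale). Of the members, 31 were tested; Cpt1b and Acot2 had too few UMIs. Against adipocyte-like nuclei, 4 members were higher in cardiomyocyte-like nuclei, where 21.9% of all genes were, and 20 were lower, where 21.1% of all genes were. The median of the members was -0.68, against -0.003 over all genes. This contrast rests on the 2 injured-father hearts, since the other 2 held under 50 adipocyte-like nuclei each. Its p-values draw on the spread pooled over all classes in the fit, not on these 2 hearts alone. Scaling by library totals in place of TMM moved the median gene by -0.60 and gave 2 higher and 25 lower members. On that scale the median of the members was -1.28, against -0.60 over all genes. The shares of all genes above belong to the TMM fit with classes by cluster, not to the other settings. When each nucleus was classed by its own marker score in place of its cluster, 7 members were higher and 4 lower, with a median of 0.04.

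Cpt1a, the malonyl-CoA-sensitive gate of the carnitine shuttle known best from liver, stood at 107 and 80.7 CPM in cardiomyocyte-like nuclei of the 2 injured-father hearts, and at 23.4 and 31.7 CPM in their adipocyte-like nuclei. It was higher in cardiomyocyte-like nuclei by 2.28 (SE 0.29, edgeR adjusted p = 6.19e-09). Fabp3, the fatty acid binding protein of heart muscle, stood at 115 and 150.5 CPM in cardiomyocyte-like nuclei and at 68.2 and 80.4 CPM in adipocyte-like nuclei, a difference of 1.35 (SE 0.20). For both genes the classes did not overlap in either heart. Acot13, a mitochondrial thioesterase, was also higher in cardiomyocyte-like nuclei, by 0.96 (SE 0.26), but not past the threshold when library totals set the scale (0.36). Acat1, the mitochondrial acetoacetyl-CoA thiolase that closes ketone body use, had a difference of 0.43 (SE 0.13) that passed on the TMM scale, and of -0.17 on the scale of library totals.

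Among the 20 that were lower in cardiomyocyte-like nuclei were all 5 acyl-CoA dehydrogenases, which start each round by chain length (median -0.80), and all 5 genes of the hydratase to thiolase steps (median -0.77). Classes by marker score gave fewer lower members than these steps hold, so not all of these genes were lower under that setting. Hadh, the short-chain hydroxyacyl-CoA dehydrogenase, was at 57.3 and 49.6 CPM in cardiomyocyte-like nuclei and at 240 and 188 CPM in adipocyte-like nuclei (difference -1.43, SE 0.18). Both peroxisomal enzymes were lower too, Ehhadh, the bifunctional enzyme, by -1.79 (SE 0.32) and Hsd17b4, the second multifunctional enzyme, by -1.06 (SE 0.13). Cpt2, which reforms acyl-CoA inside the mitochondrion, differed by -1.49 (SE 0.25).
Ucp3 stood at 29.4 and 27.7 CPM in cardiomyocyte-like nuclei and at 199 and 102 CPM in adipocyte-like nuclei, a difference of -1.95 (SE 0.27, edgeR adjusted p = 3.05e-08). Pdk4 stood at 21.4 and 39.3 CPM in cardiomyocyte-like nuclei and at 99.4 and 207 CPM in adipocyte-like nuclei, a difference of -1.93 (SE 0.23). In both genes the adipocyte-like value was above the cardiomyocyte-like value in each heart. In contrast, Cd36 (-0.12, SE 0.20), Slc27a1, a fatty acid transport protein (-0.11, SE 0.15), Etfa, a subunit of the electron transfer flavoprotein (0.17, SE 0.12), and Eci2, an enoyl-CoA isomerase (-0.10, SE 0.21), did not pass the test.

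Against vascular endothelial-like nuclei, 28 of the 31 members were higher in cardiomyocyte-like nuclei, where 38.5% of all genes were, and 2 were lower, where 37.3% of all genes were. On library totals the counts were 25 and 3, with a median of 0.75 for the members and -0.53 over all genes. The shares of all genes are those of the TMM scale. Slc27a1 averaged 369 ± 65.3 CPM in cardiomyocyte-like nuclei and 52.8 ± 13.5 CPM in vascular endothelial-like nuclei (SD, n = 4 hearts), a difference of 3.34 (SE 0.12). Acat1 averaged 209 ± 6.72 CPM in cardiomyocyte-like nuclei and 63.3 ± 2.45 CPM in vascular endothelial-like nuclei, a difference of 2.25 (SE 0.08). Both were higher in cardiomyocyte-like nuclei of 4 of 4 hearts. Etfb, the other subunit of the electron transfer flavoprotein, was the only 1 of the 31 not past the threshold in either direction (0.19, SE 0.16).

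The members that were lower in cardiomyocyte-like than in vascular endothelial-like nuclei were Cd36 and Ucp2. Cd36 stood at 618 and 658 CPM in cardiomyocyte-like nuclei of injured-father hearts and at 480 and 597 CPM in those of uninjured-father hearts. In vascular endothelial-like nuclei it stood at 1331 and 2489 CPM in injured-father hearts and at 1737 and 1657 CPM in uninjured-father hearts, above the cardiomyocyte-like value in each heart. The difference was -1.07 (SE 0.16, edgeR adjusted p = 3.24e-08). Within the endothelium Cd36 was highest in the cluster led by Fabp4 and Gpihbp1, a capillary anchor of lipoprotein lipase, at 3331 ± 912 CPM (SD, n = 4 hearts). It averaged 1809 ± 558 CPM in the cluster led by Ccdc85a, 1281 ± 286 CPM in the cluster led by Kirrel3, and 1108 ± 547 CPM in the cluster led by Sema3g. Ucp2, the broadly expressed relative of Ucp3, stood in the same order of clusters at 86.9, 16.1, 20.4 and 18.6 CPM.

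Ucp2 was lower in cardiomyocyte-like nuclei than in the lymphocyte, macrophage and endothelial classes. It stood at 7.38 and 9.32 CPM in cardiomyocyte-like nuclei of injured-father hearts and at 5.19 and 7.43 CPM in those of uninjured-father hearts, against 34.7 and 82.7 CPM (injured-father hearts) and 47.7 and 63.2 CPM (uninjured-father hearts) in macrophage-like or monocyte-like nuclei. The difference from macrophage-like or monocyte-like nuclei was -2.31 (SE 0.19). It was -1.79 from T-like or NK-like lymphocytes, -1.69 from B-like lymphocytes, -1.25 from vascular endothelial-like and -1.14 from lymphatic endothelial-like nuclei. The difference from endocardial-like nuclei, -0.56, was at an edgeR adjusted p of 0.0487 and was lost with doublets kept, with no filter on low counts, and without any 1 of injured-father heart 1, uninjured-father heart 1 and uninjured-father heart 2.

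In the other classes the members were nearly all higher in cardiomyocyte-like nuclei on the TMM scale, and fewer were on library totals, which moved the median gene by -0.74 to -0.49 over these contrasts. On library totals the median of the members was 0.61 to 1.24, against -0.69 to -0.43 over all genes. The shares of all genes given here are those of the TMM scale and do not belong to the counts on library totals. Against fibroblast-like nuclei 31 of 31 were higher, where 36.9% of all genes were (26 on library totals), and none was lower, where 37.6% were. Against pericyte-like nuclei 29 were higher, where 35.5% were (23 on library totals), and none lower, where 33.5% were. Against endocardial-like nuclei 30 were higher, where 33.6% were (25 on library totals), and Ucp2 was lower, where 32.2% were. Against macrophage-like or monocyte-like nuclei 28 were higher, where 35.5% were (23 on library totals), and Ucp2 was lower, where 33.9% were. Against smooth muscle-like nuclei 25 were higher, where 26.8% were (17 on library totals), and none lower, where 23.7% were. Against lymphatic endothelial-like nuclei 29 were higher, where 30% were (25 on library totals), and Ucp2 was lower, where 31.5% were. Against B-like lymphocytes 28 were higher, where 33.2% were (19 on library totals), and Ucp2 was lower, where 25.4% were. Against T-like or NK-like lymphocytes 27 were higher, where 29.3% were (16 on library totals), and Ucp2 was lower, where 27.4% were. Against Schwann-like or glial-like nuclei 23 were higher, where 23.9% were (11 on library totals), and none lower, where 19.6% were. Against mesothelial-like or epicardial-like nuclei, in the 2 injured-father hearts, 23 were higher, where 22.8% were (18 on library totals), and none lower, where 22.2% were. The contrasts with lymphatic endothelial-like nuclei, T-like or NK-like lymphocytes and Schwann-like or glial-like nuclei rest on 3 hearts each. Uninjured-father heart 2 held only 40, 25 and 44 of these nuclei and did not enter them. Slc27a1 and Ucp3 led in fibroblast-like contrasts, by 3.49 and 4.11.

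Cardiomyocyte markers found in other classes give the scale of free RNA from cardiomyocyte-like nuclei, but not of that from other classes. Cd36 averaged 1803 CPM in vascular endothelial-like nuclei and 588 CPM in cardiomyocyte-like nuclei, so this scale does not cover all its free RNA. In fibroblast-like nuclei the 12 cardiomyocyte markers stood at 4.56% to 22.5% of their cardiomyocyte level, and Cd36, Slc27a1, Cpt1b and Ucp3 lay within or below that range. In adipocyte-like nuclei the 12 markers stood at 4.44% to 20.4% of their cardiomyocyte level, while no member was in or below that range: the lowest stood at 33.6%. In vascular endothelial-like nuclei 9 members lay in or below the range, Slc27a1, Ucp3 and Acat1 among them. The range ends at the highest of the 12 markers, 45.3% in vascular endothelial-like nuclei, where the median marker was at 10.7%. Values in or below the range cannot be told apart from free RNA by this measure. The part of free RNA in them was not tested. Cpt1b had 178 UMIs in all nuclei together.

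**Figure D2:**
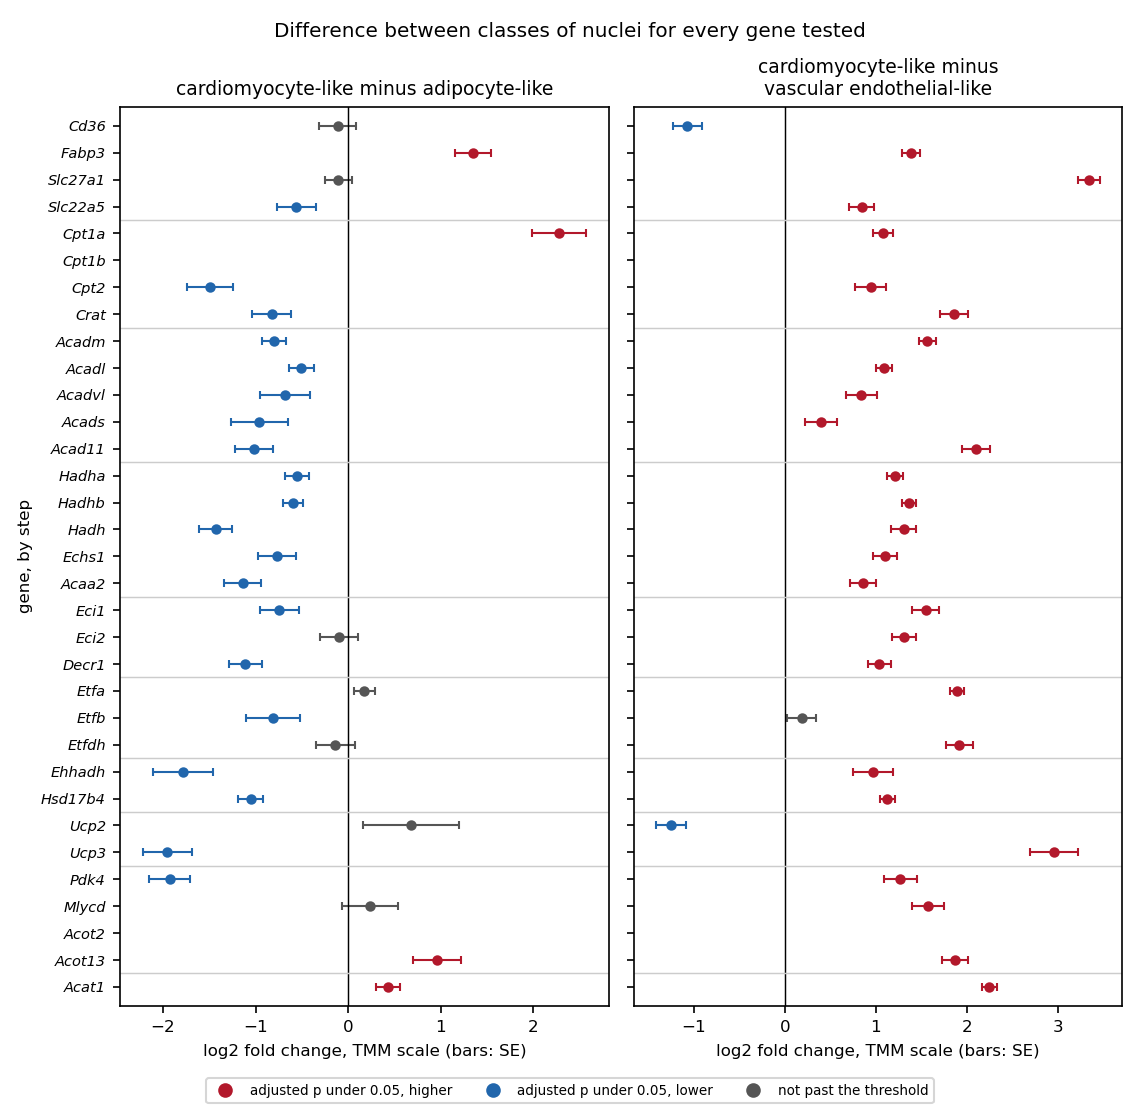
Log2 fold change on the TMM scale (points) with its SE (bars) for each tested member, cardiomyocyte-like minus adipocyte-like nuclei (left) and cardiomyocyte-like minus vascular endothelial-like nuclei (right); red and blue mark adjusted p under 0.05. In the left panel 20 genes lie below 0 in blue and 4 above 0 in red, and in the right panel Cd36 and Ucp2 are the blue points.

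The second question was whether the members differed in cardiomyocyte-like nuclei by the father's injury. All 33 were tested, and none passed an adjusted p of 0.05 (edgeR), while 0.00799% of 12515 genes did in either direction. At an unadjusted p under 0.05 there were 6 members (Ucp3, Acaa2, Pdk4, Eci2, Mlycd and Decr1), against 4.28% of all genes. The log2 fold change of injured-father over uninjured-father hearts was positive for 29 members and negative for 4, with a median of 0.22, against 49.8% positive over all genes. In 13 members both injured-father hearts lay above both uninjured-father hearts, as did 14% of all genes, and in 1 member they lay below, as did 16.4%. With 2 hearts against 2 there are 6 ways to split the hearts, and an exact permutation test of a single gene cannot give a two-sided p under 0.333.

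By step, the median log2 fold change was largest for the 2 uncoupling carriers (0.71) and the 4 switches and thioesterases (0.55). In Ucp2 (0.47) and Acot2, which belong to these steps, the father groups overlapped. Ucp3 stood at 29.4 and 27.7 CPM in injured-father hearts, against 12.2 and 18.3 CPM in uninjured-father hearts. Both injured-father hearts were above both others, and the log2 fold change was 0.95 (SE 0.20, unadjusted p = 0.00109, edgeR adjusted p = 0.454). With a heart left out it was 0.91 without injured-father heart 1 (edgeR adjusted p = 1.00), 0.98 without injured-father heart 2 (0.0104), 0.69 without uninjured-father heart 1 (0.371) and 1.20 without uninjured-father heart 2 (0.180). Each such fit leaves 1 heart in one group, which is assumed to vary like the other group's hearts, so the lower p is no firmer evidence. Over the 15 alternatives the log2 fold change ran between 0.69 and 1.27. A Ucp3 UMI was found in 12.9% of 4435 cardiomyocyte-like nuclei in injured-father hearts and in 6.11% of 4994 in uninjured-father hearts, at median depths of 4733 and 3958.5 UMIs. In fibroblast-like nuclei, which should lack the gene, the shares were 0.542% in injured-father hearts and 0.363% in uninjured-father hearts, at median depths of 2379 and 2021 UMIs. Thinned to 1000 UMIs per nucleus, the cardiomyocyte-like shares were 2.79% and 1.46%. These thinned levels lie near that of a single UMI and are given as values.

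Pdk4 stood at 21.4 and 39.3 CPM in injured-father hearts, against 15.3 and 20.7 CPM in uninjured-father hearts, and injured-father heart 1 was close to uninjured-father heart 2. Its log2 fold change was 0.80 (SE 0.28, unadjusted p = 0.0182, edgeR adjusted p = 1.00), and 0.27 without injured-father heart 2. Mlycd, malonyl-CoA decarboxylase, which removes the inhibitor of Cpt1a and Cpt1b, stood at 25.8 and 36.9 CPM in injured-father hearts, against 20.8 and 24.1 CPM in uninjured-father hearts (log2 fold change 0.51, SE 0.20). In these 2 switches injured-father heart 2 was the highest. Acot13 was the 1 member with both injured-father hearts below both others, at 45.6 and 57.9 CPM in injured-father hearts, against 59.8 and 61.6 CPM in uninjured-father hearts. Its log2 fold change was -0.21 (SE 0.16, unadjusted p = 0.218).

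**Figure D3:**
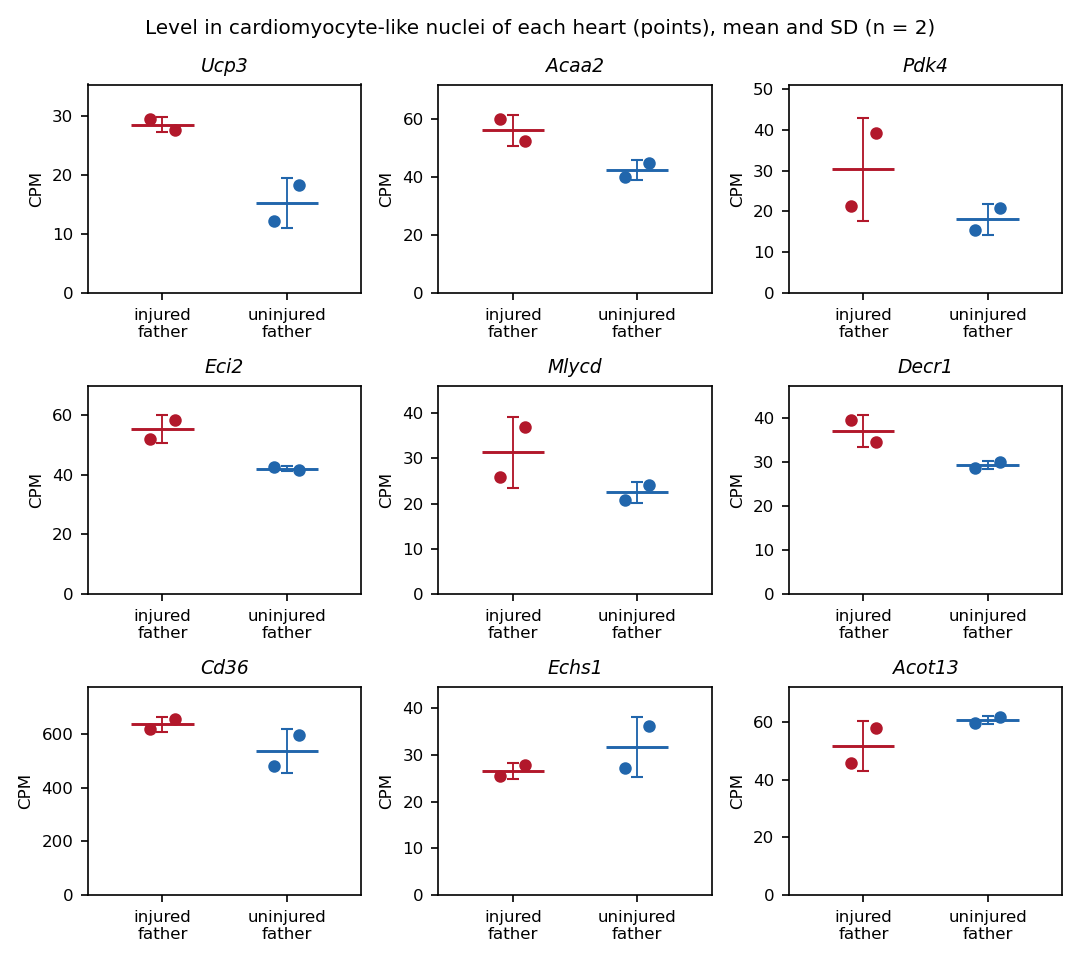
CPM in cardiomyocyte-like nuclei of each heart (points), with the mean and SD (bars, n = 2), for 9 members, injured-father hearts left and uninjured-father hearts right. Ucp3 lies at 29.4 and 27.7 CPM on the left and at 12.2 and 18.3 CPM on the right, and Acot13 is the panel in which both left points are lower.

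Along the oxidation steps the differences were smaller. Acaa2, the mitochondrial thiolase that ends each round, stood at 59.9 and 52.4 CPM in injured-father hearts, against 40.1 and 45.0 CPM in uninjured-father hearts (log2 fold change 0.42, SE 0.15, unadjusted p = 0.0175). Eci2 stood at 51.9 and 58.5 CPM in injured-father hearts, against 42.7 and 41.5 CPM in uninjured-father hearts (0.41, SE 0.15). Decr1, the dienoyl-CoA reductase needed for polyunsaturated chains, stood at 39.5 and 34.4 CPM in injured-father hearts, against 28.6 and 29.9 CPM in uninjured-father hearts (0.35, SE 0.16). In all 3 genes the groups did not overlap. Echs1, the short-chain enoyl-CoA hydratase, had the lowest value of its step at -0.22 (SE 0.18), with 25.4 and 27.7 CPM in injured-father hearts against 27.1 and 36.3 CPM in uninjured-father hearts, and these groups overlapped. Etfb (-0.11, SE 0.25) and Ehhadh (-0.06, SE 0.21) were the remaining negative members, and both changed sign when 1 heart was left out.

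The 4 genes of uptake and binding had log2 fold changes of 0.11 to 0.27, and Cd36, at 618 and 658 CPM in injured-father hearts against 480 and 597 CPM in uninjured-father hearts, was the highest of them. The 4 genes of the carnitine shuttle had 0.21 to 0.43, with Cpt1a highest at 107 and 80.7 CPM in injured-father hearts against 80.0 and 60.4 CPM in uninjured-father hearts. The 5 acyl-CoA dehydrogenases had 0.03 to 0.22. Hadha and Hadhb, the subunits of the trifunctional protein, had 0.23 (SE 0.14) and 0.27 (SE 0.13), and Hadh had 0.05 (SE 0.14). Acat1 had 0.07 (SE 0.12). None of these passed the test.

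**Figure D4:**
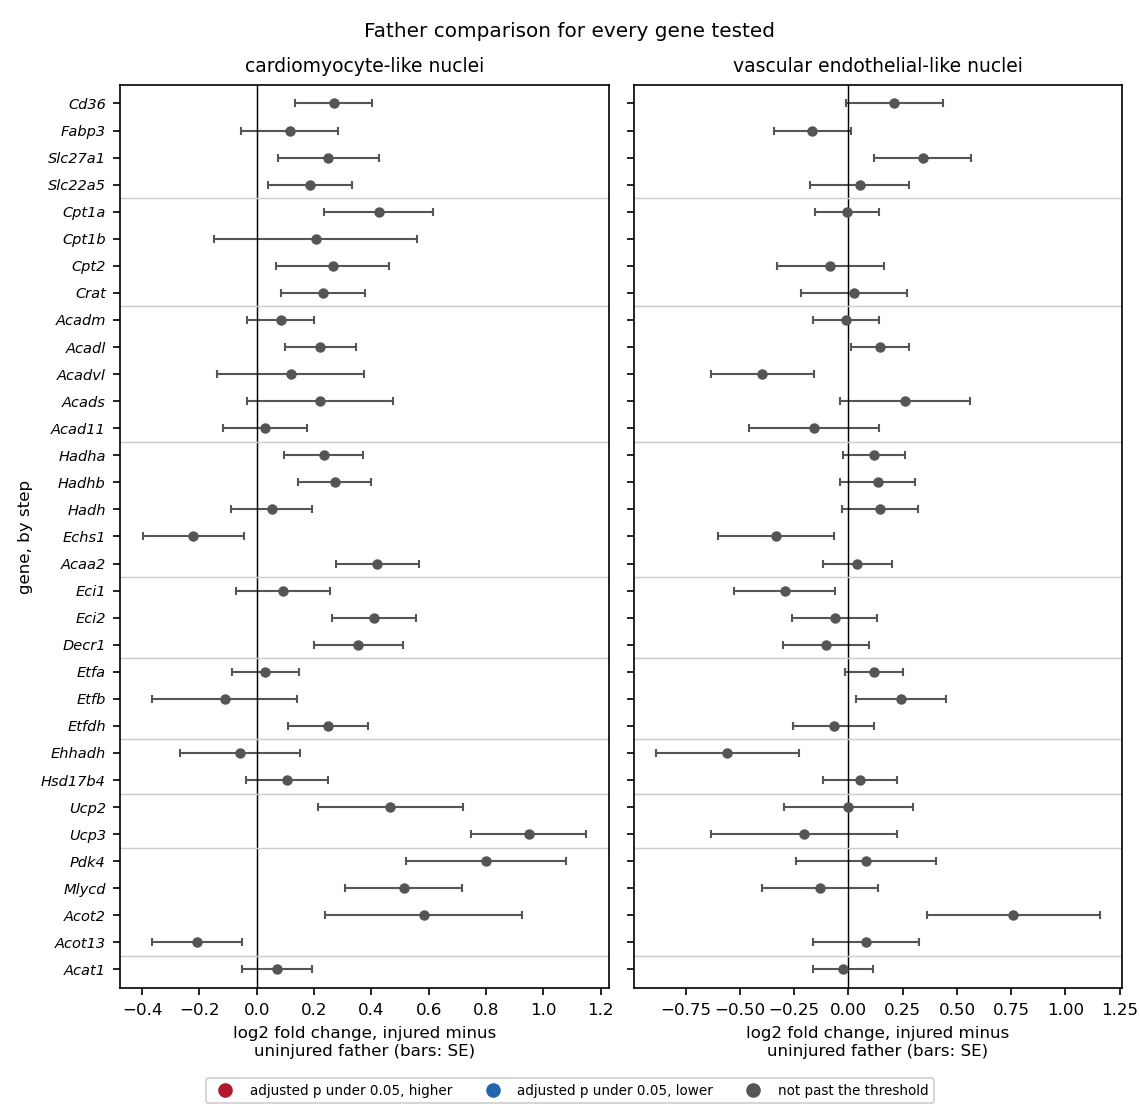
Log2 fold change of injured-father over uninjured-father hearts (points) with its SE (bars) for every member tested, in cardiomyocyte-like nuclei (left) and vascular endothelial-like nuclei (right). No point passes an adjusted p of 0.05, 29 of 33 lie above 0 on the left and 16 of 32 on the right.

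Several other measures moved with the father groups in cardiomyocyte-like nuclei. Atrial-like nuclei made up 9.60% and 12.2% of cardiomyocyte-like nuclei in injured-father hearts and 6.37% and 2.45% in uninjured-father hearts. The summed atrial markers stood at 205 and 418 CPM against 188 and 134 CPM, with 6 of 7 markers above in both injured-father hearts. Ucp3 within the largest cluster, led by Fhl2 and Slc4a3, stood at 35.0 and 34.2 CPM in injured-father hearts against 12.9 and 16.2 CPM in uninjured-father hearts. In the second-largest cardiomyocyte-like cluster it stood at 28.6 and 26.8 CPM in injured-father hearts against 13.01 and 25.2 CPM in uninjured-father hearts, and there the injured-father hearts were close to uninjured-father heart 2. Within the largest cluster alone, 30 of 33 members had a positive log2 fold change, with a median of 0.27.

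Adipocyte-like nuclei also moved with the father groups, and they hold more of most members. The 9 adipocyte markers summed to 81.2 and 165 CPM in cardiomyocyte-like nuclei of injured-father hearts and to 108 and 158 CPM in those of uninjured-father hearts, and 6 of the 9 were above in both injured-father hearts. Nearly all of that sum was Plin4, at 72.5 and 158 CPM against 105 and 154 CPM. The 8 brown fat markers summed to 325 and 373 CPM against 290 and 272 CPM, with Elovl3 and Otop1 at 0. The Ucp3 difference between the father groups was 8.86% of its level in adipocyte-like nuclei, while the difference was 0.27% of that level for Ucp1, 0.27% for Adipoq and 0.15% for Cidec. Erythroid markers stood at 318 and 602 CPM in injured-father hearts and at 1108 and 356 CPM in uninjured-father hearts, highest in uninjured-father heart 1. The part of these measures in the father differences was not tested.

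In the other classes no member passed an adjusted p of 0.05 (edgeR). In vascular endothelial-like nuclei 16 of 32 tested members had a positive log2 fold change, as did 48.2% of all genes, with a median of 0.01. None was at an unadjusted p under 0.05, as 5.26% of all genes were, and 0% of all genes were called. Acot2, a mitochondrial thioesterase, had 0.76 (SE 0.40) and Ehhadh -0.56 (SE 0.33). Cd36, at 1331 and 2489 CPM in injured-father hearts against 1737 and 1657 CPM in uninjured-father hearts, had 0.21 (SE 0.22), and its direction rests on 1 heart. It was 0.60 without injured-father heart 1 (edgeR adjusted p = 0.0260) and -0.32 without injured-father heart 2 (0.768), where the lone heart is assumed to vary like the uninjured-father hearts.

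In fibroblast-like nuclei 20 of 32 members were positive, against 49.6% of all genes; none was at an unadjusted p under 0.05 (3.13% of all genes), and 0.0161% of all genes were called. In endocardial-like nuclei 8 of 26 were positive, against 49.5% of all genes; 1 was at an unadjusted p under 0.05 (4.77% of all genes), and 0.024% of all genes were called. That member was Fabp3, with 34.2 and 31.2 CPM in injured-father hearts against 42.2 and 73.5 CPM in uninjured-father hearts (-0.71, SE 0.31). The groups did not overlap, on 132 UMIs in all.

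In pericyte-like nuclei 19 of 31 members were positive, against 49.9% of all genes; 2 were at an unadjusted p under 0.05 (4.37% of all genes), and 0.0698% of all genes were called. Cd36 there stood at 168 and 254 CPM in injured-father hearts against 160 and 175 CPM in uninjured-father hearts (0.37, SE 0.16), values that overlap and that lie in the range of the cardiomyocyte markers found in these nuclei. In macrophage-like or monocyte-like nuclei 16 of 27 were positive, against 49.7% of all genes; none was at an unadjusted p under 0.05 (6.21% of all genes), and 0.263% of all genes were called. In smooth muscle-like nuclei 9 of 12 were positive, against 50.3% of all genes; 1 (Fabp3) was at an unadjusted p under 0.05 (4.03% of all genes), and 0% of all genes were called. In B-like lymphocytes 7 of 14 were positive, against 50.3% of all genes; none was at an unadjusted p under 0.05 (5.32% of all genes), and 0% of all genes were called.

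Whether the father difference in cardiomyocyte-like nuclei differed from that in each of the 7 other classes was tested in a shared fit. Only members that passed its filter on low counts were tested, and none of them was called (edgeR). Of all genes, 0.121% were called against fibroblast-like, 0.0643% against vascular endothelial-like and endocardial-like, 0.0402% against pericyte-like nuclei and B-like lymphocytes, 0.0322% against macrophage-like or monocyte-like and 0.0161% against smooth muscle-like nuclei. The positive values in cardiomyocyte-like nuclei are therefore not shown to be particular to them.

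Over all nuclei summed, 23 of 33 members were positive, against 48.8% of all genes, 1 was at an unadjusted p under 0.05 (6.99% of all genes), and none passed the adjusted threshold, which 0.101% of 14891 genes did. Ucp3 stood at 18.0 and 15.4 CPM in injured-father hearts against 7.53 and 10.8 CPM in uninjured-father hearts, without overlap (0.86, SE 0.19, edgeR adjusted p = 0.320). With a heart left out its log2 fold change ran between 0.66 and 1.07, with edgeR adjusted p between 0.00332 (without injured-father heart 2) and 0.998 (without uninjured-father heart 2). Pdk4 had 0.57 (edgeR adjusted p = 0.808) over all nuclei, 1.00 without injured-father heart 1 (5.88e-05) and -0.075 without injured-father heart 2 (1.00). In these fits too a lone heart is assumed to vary like the other group. In whole-heart sums, a change in how many nuclei of a class were captured and a change in RNA per nucleus cannot be told apart. The father groups were not tested in adipocyte-like nuclei, where the uninjured-father hearts held under 50 nuclei each; Ucp3 had 102 and 48 UMIs in injured-father hearts and 2 and 6 UMIs in uninjured-father hearts, of 512832 and 472496 against 47800 and 14814 UMIs in all.

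The third comparison was within cardiomyocyte-like nuclei, between the atrial-like cluster (led by Fgf12 and Tmem163, with Nppa and Myl4 among its top 10 genes) and the other cardiomyocyte-like clusters of the same 4 hearts. Of 33 members, 13 were lower in atrial-like nuclei, where 12.8% of 11749 genes were, and 1 was higher, where 13.1% were (edgeR, library as a block). The median of the members was -0.32, against -0.01 over all genes. Without injured-father heart 2 the count of lower members was 8, and without injured-father heart 1 the count of higher members was 2.

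Ucp3 and Ucp2 parted between these clusters. Ucp3 stood at 11.3 and 12.2 CPM in atrial-like nuclei of injured-father hearts and 2.21 and 10.0 CPM in those of uninjured-father hearts, against 31.0 and 29.7 CPM and 12.8 and 18.5 CPM in the other clusters of the same hearts. It was lower in atrial-like nuclei of 4 of 4 hearts (-1.43, SE 0.26, edgeR adjusted p = 4.03e-06). The atrial-like values rest on 9 and 21 UMIs in injured-father hearts and on 2 and 2 UMIs in uninjured-father hearts. Ucp2 stood at 17.6 and 16.8 CPM in atrial-like nuclei of injured-father hearts and 13.2 and 0 CPM in those of uninjured-father hearts, against 6.49 and 8.32 CPM and 4.72 and 7.63 CPM in the other clusters. It was higher in 3 of 4 hearts (1.11, SE 0.30, edgeR adjusted p = 0.00272), and the heart at 0 held 52 atrial-like nuclei.

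Fabp3 stood at 67.9 and 99.1 CPM in atrial-like nuclei of injured-father hearts and 78.4 and 80.3 CPM in those of uninjured-father hearts, against 119 and 157 CPM and 109 and 144 CPM in the other clusters, lower in 4 of 4 hearts (-0.67, SE 0.12). Cpt1b, the muscle form of the carnitine palmitoyltransferase gate, had 2 UMIs in all atrial-like nuclei and 25, 62, 55 and 20 UMIs in the other clusters (injured-father hearts first); its fitted value of -2.80 (SE 0.82) rests on those 2 UMIs. Eci1, an enoyl-CoA isomerase, was lower in 4 of 4 hearts (-0.90, SE 0.19) but not past the threshold without injured-father heart 2 (-0.53, edgeR adjusted p = 0.106). Acadm, the medium-chain dehydrogenase (-0.64), Hsd17b4 (-0.62), Mlycd (-0.61), Etfdh, the electron transfer flavoprotein's oxidoreductase (-0.59), and Hadha (-0.53) were lower too. The last of the 13 were Etfa (-0.40), Hadhb (-0.38), Cd36 (-0.34) and Acat1 (-0.30). The long-chain dehydrogenase Acadl (-0.11), Cpt1a (-0.11) and Slc27a1 (-0.13) did not pass the test.

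**Figure D5:**
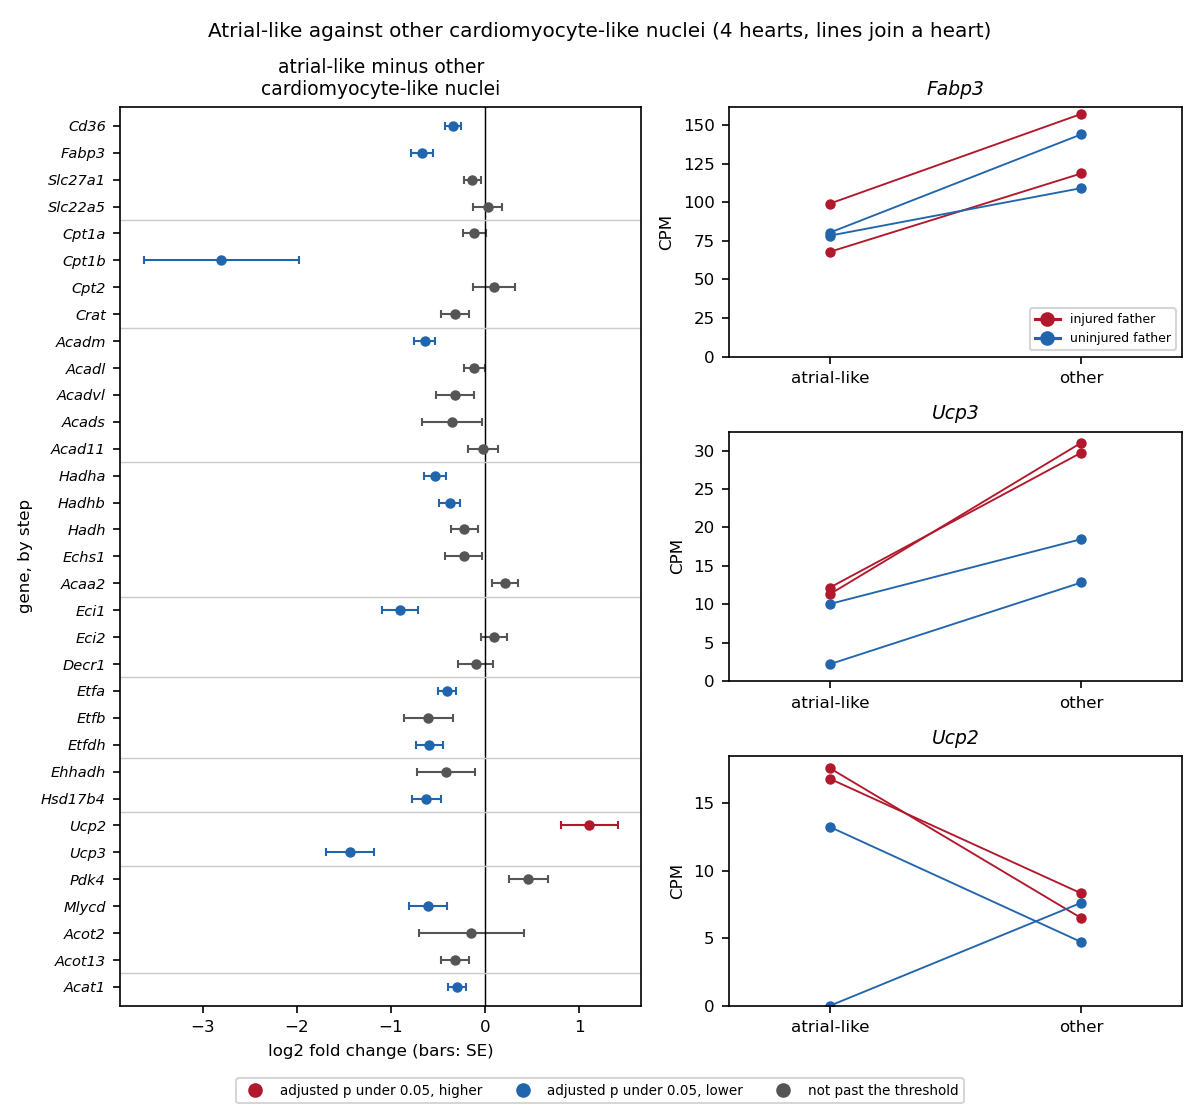
Left, log2 fold change of atrial-like over other cardiomyocyte-like nuclei (points) with its SE (bars) for the 33 members; right, CPM of Fabp3, Ucp3 and Ucp2 in both kinds of nuclei of each heart, a line per heart. Fabp3 and Ucp3 lie lower in atrial-like nuclei of all 4 hearts, and Ucp2 lies higher in 3 of 4.

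Other genes of the pathway were read from 7 lists of 90 genes. By the father's injury in cardiomyocyte-like nuclei, 0 of 85 tested passed (edgeR), and 5 were at an unadjusted p under 0.05, as were 4.28% of all genes. Slc25a20, the carnitine-acylcarnitine carrier, was at 52.6 and 40.4 CPM in injured-father hearts against 28.2 and 33.5 CPM in uninjured-father hearts (0.61, SE 0.18), and Acaca, an acetyl-CoA carboxylase that makes malonyl-CoA, was at 51.6 and 42.7 CPM against 35.6 and 26.6 CPM (0.60, SE 0.19). By list, 12 of 19 other genes of uptake and activation were positive (median 0.05), 3 of 11 other peroxisomal genes (median -0.12), 2 of 5 ketone genes (median -0.11), 7 of 12 genes of malonyl-CoA and pyruvate dehydrogenase control (median 0.01) and 9 of 12 genes of triglyceride breakdown (median 0.08). Of 13 genes of glucose uptake and glycolysis 2 were positive, with a median of -0.11, and of 13 regulators 5 were positive, with a median of -0.03. Mgll, monoglyceride lipase, was at 77.3 and 76.3 CPM in injured-father hearts against 60.04 and 55.3 CPM in uninjured-father hearts (0.43). Hk2, a hexokinase, had -0.37, with 199.8 and 131 CPM in injured-father hearts against 202 and 231 CPM in uninjured-father hearts. In Mgll the groups did not overlap, and in Hk2 both injured-father hearts lay below both others. In pericyte-like nuclei the regulator Pparg passed (1.03, SE 0.18, edgeR adjusted p = 0.00549). It was at 107 and 106 CPM in injured-father hearts against 48.1 and 60.3 CPM in uninjured-father hearts. The fat gene Cidea there was at 12.6 and 5.76 CPM in injured-father hearts against 1.19 and 2.01 CPM in uninjured-father hearts. Cidec, Cfd and Plin1 were also above in both injured-father hearts, while Ucp1 and Adipoq overlapped and Lep had no UMI. The part of free RNA from fat in the Pparg difference was not tested. In atrial-like nuclei 5 of 82 were higher, where 13.1% of all genes were, and 32 lower, where 12.8% were. Among the lower were 9 of 13 regulators, such as Esrrb (-1.18), Ppargc1b (-1.16) and Ppara (-0.71), and 7 of 13 genes of glucose uptake and glycolysis, such as Hk2 (-0.75). Lpl, lipoprotein lipase (-1.43), Plin5, a lipid droplet protein (-1.80), and Oxct1, the enzyme that activates ketone bodies for use (-0.85), were lower as well.

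Some of these counts carry a limit of annotation. In GENCODE M21, Cpt1b, Acad11 and Etfb overlap another gene on the same strand, and their reads cannot be assigned with certainty. Fabp3, Crat, Acadvl, Acad11, Hadha, Echs1, Etfdh and Ucp2 overlap a gene on the opposite strand, and whether strand was used in counting is not given in the sources used here.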

How the data were processed

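The authors deposited unnormalised counts of UMIs for each gene in each barcode; per the file headers, the tool was Cell Ranger 6.0.1, and the submitters' processing notes name Seurat 4.0. The build is not given in the sources used here; 21779 of 21884 identifiers matched GENCODE M21 (GRCm38). Nuclei with at least 500 UMIs, at least 300 genes and under 5% mitochondrial UMIs were kept, and Scrublet doublets were removed. Clusters (scanpy 1.11.5, leidenalg 0.10.2; 3000 variable genes without the members, 30 components, 20 neighbours, resolution 1) were named by 17 marker lists with 20 CPM added; of 25 clusters, 2 (588 nuclei) were left unnamed by rules set after the clusters were seen. Counts were summed per class and heart, filtered (filterByExpr, minimum 10), scaled by TMM and tested with edgeR 4.0.16 (R 4.3.3), Benjamini-Hochberg over all genes; a class entered where it held at least 50 nuclei per heart. SE is the absolute log2 fold change over the square root of F. The test was checked on simulated counts. Alternatives were other size factors, no filter, DESeq2 1.42.0, limma 3.58.1, each heart left out, the replicate number as a block, doublets kept, a stricter filter (1000 UMIs), members among the variable genes, classes by marker score and, added after the data were seen, library totals. Members, lists and comparisons were chosen with earlier results of these data known. Named are the 4 members per direction with the smallest p in cardiomyocyte-like nuclei, 1 per direction elsewhere, and up to 4 per direction by size between classes; others were picked after their values were seen. Shares of nuclei have Wilson intervals for counting error only.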

Additional observations from a re-analysis of the deposited data

How the results depend on the processing

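Library totals in place of TMM moved the median gene by up to -0.74 between classes. Shares of all genes called are given for the main fits alone, so counts under other settings stand without one. They gave 11 higher members against Schwann-like or glial-like nuclei, 16 against T-like or NK-like lymphocytes and 2 against adipocyte-like nuclei, 2 lower members against macrophage-like or monocyte-like nuclei, and turned Acat1 against adipocyte-like nuclei to -0.17. Classes by marker score gave 7 higher and 4 lower members against adipocyte-like nuclei and 2 lower against mesothelial-like or epicardial-like nuclei. The lower member against endocardial-like nuclei (Ucp2) was lost with doublets kept and with no filter on low counts (0 each), and the count ran between 0 and 1 with a heart left out. By the father's injury in cardiomyocyte-like nuclei, no filter on low counts gave 2 members (Ucp3 and Pdk4, edgeR adjusted p 0.000714 and 0.00843), and leaving out a heart gave 0 to 1; over all nuclei DESeq2 and no filter gave 1 each, and leaving out a heart 0 to 1, as in vascular endothelial-like nuclei. Replicate numbers only name the hearts: the correlation of same-numbered hearts' deviations was 0.0835 in cardiomyocyte-like nuclei, over 2 pairs. The replicate block called 1 member (Ucp3) in cardiomyocyte-like nuclei and 1 over all nuclei. Atrial-like counts ran between 8 and 13 lower and 1 and 2 higher with a heart left out. With a heart left out, Ehhadh by father in cardiomyocyte-like nuclei ran between -0.20 and 0.075 and Etfb between -0.47 and 0.28; Ehhadh was 0.061 in the largest cluster, and Acadm in smooth muscle-like nuclei was 0.011 under the stricter filter. The cause was not tested. In cardiomyocyte-like nuclei the count of positive members ran between 25 and 30 over the 15 alternatives. Leaving out an injured-father heart left 1 heart for the adipocyte contrast and was not run. Genes with few UMIs, such as Cpt1b, Acot2 and most members in adipocyte-like nuclei of uninjured-father hearts, could show only large differences at this depth.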

Other observations

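Other genes of the pathway were also compared between classes. Against adipocyte-like nuclei of the 2 injured-father hearts, 15 of 82 tested genes were higher in cardiomyocyte-like nuclei, where 21.9% of all genes were, and 42 lower, where 21.1% were (edgeR adjusted p under 0.05). The lower ones included 9 of 11 genes of triglyceride breakdown, such as Lipe, the hormone-sensitive lipase (log2 fold change -5.18), and G0s2, an inhibitor of triglyceride lipase (-3.23). Acaca (-5.97) and Pparg, the master regulator of fat cells (-5.81), were lower too, while the regulator Esrrb (3.72) and the hexokinase Hk1 (3.21) were higher. Against vascular endothelial-like nuclei, 54 of 82 were higher in cardiomyocyte-like nuclei, where 38.5% of all genes were, and 18 lower, where 37.3% were. The higher ones included Ppara (4.02), a regulator of fatty acid oxidation genes, the hexokinase Hk2 (3.32) and the insulin-responsive glucose transporter Slc2a4 (3.31). The lower ones included Gpihbp1 (-5.78) and the fatty acid binding proteins Fabp4 (-5.57) and Fabp5 (-4.75).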
